A study of Nothobranchius furzeri with 12 samples.

Results

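In the intestine of the turquoise killifish Nothobranchius furzeri, 131 of 25475 genes were expressed at their lowest level in old fish under intermittent fasting (W20 IF) and at similar, higher levels in old fish fed ad libitum (W20 AL) and in young adult fish (W10). The genes were chosen by their measured levels in CPM (the reads counted on a gene for every 1000000 reads counted in its library). A gene was taken where its mean was at least 1 CPM in W20 AL and in W10 and at least 1.5 times the W20 IF mean in each, where the highest of W20 IF replicates 1 to 3 lay below all 8 W20 AL and W10 libraries, and where the W20 AL and W10 means were within 1.5-fold of each other. W20 IF replicate 4 did not enter the rule. Because the levels in all 3 groups chose these genes, their differences between the groups are described here without tests, and a call given for a gene is a property of how it was chosen.

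All fish were wild-type males of the short-lived strain GRZ, and RNA was taken from the intestine, which the labels call whole and the methods, in describing the dissection, small. W20 IF fish were killed at 20 weeks and had been given food in excess only every other day since the age of 10 weeks. W20 AL fish were killed at 20 weeks and had excess food every day, and W10 fish were killed at 10 weeks under that same daily feeding. Both daily-fed groups carry the same treatment label, none, and are called the fed groups here. Each group had 4 libraries of poly(A)-selected RNA read as directional pairs of 75 bp. How long before death the W20 IF fish had last eaten is not given in the sources used here. By the methods, the males were housed singly from the onset of sexual maturation and were separated into these groups at the age of 10 weeks. Each feeding and age group was a single cohort.

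The intestine of this agastric fish takes up and processes nutrients through an epithelium of enterocytes and goblet cells that is renewed throughout life. Food withdrawal is known to change intestinal metabolism, digestive enzyme and transporter expression and epithelial turnover in vertebrates. Alternate-day feeding places an animal in repeated cycles of fasting and refeeding. In bulk RNA of a whole organ, fewer cells of a type and less RNA per cell cannot be told apart.

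The count table gives Ensembl gene identifiers, and 0 of the 25475 matched the table of gene names used here. The genes are therefore described by their levels and their behaviour across libraries, with the identifier printed for the pair with the lowest W20 IF level relative to the nearer fed group. For the same reason the labelled tissue could not be checked against intestinal markers, and no function is assigned to any gene.

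W20 IF replicates 1 to 3 held 24937470 to 25774912 counts, W20 AL libraries 23226098 to 25642167 and W10 libraries 24249659 to 26986542. W20 IF replicate 4 stood apart with 1512262 counts. A gene with 0 counts could still have had up to 0.111 to 0.129 CPM in the 11 deeper libraries (3 counts of the total, counting error only), and up to 1.98 CPM in replicate 4. By the methods of the study, quality control excluded 1 intermittently fasted sample, which is not identified there. The methods give more fish in each fed group than the table has libraries, and as many retained W20 IF fish as it has W20 IF libraries. Whether the excluded sample is replicate 4 was not tested. Because of its depth, replicate 4 is described separately throughout, and every mean of W20 IF is over replicates 1 to 3.

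Of the 14648 genes with a mean of at least 1 CPM in both fed groups, 216 had both fed means at least 1.5 times the W20 IF mean. In 137 of these the W20 IF libraries also lay below all 8 fed libraries, and 131 of the 137 met the limit on the likeness of the fed groups. A further 50 genes missed the level condition alone, 656 the fold condition alone, 69 the order of the libraries alone and 6 the likeness of the fed groups alone. Of the last 6, 4 had the higher mean in W20 AL and 2 had the higher mean in W10.

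The fold limit lay in a continuous range of values. The 2 members nearest to it had fed means 1.5001 and 1.5004 times the W20 IF mean in the nearer group, and the 2 genes nearest to it that missed only this condition had 1.4989 and 1.498. The first member inside the limit had 1.48, 1.98 and 1.72 CPM in W20 IF, against 2.61, 2.67, 2.41 and 2.77 CPM in W20 AL, and 2.88, 2.59, 2.14 and 2.74 CPM in W10. The first gene outside had 13.1, 13.8 and 11.9 CPM in W20 IF, against 21.2, 25.5, 16.6 and 18.2 CPM in W20 AL, and 22.4, 20.1, 17.7 and 17.2 CPM in W10. In both genes the lowest fed library lay above the highest W20 IF library, so that they differ in the fold alone. The order of the libraries was also met by many genes outside the set. In 5.45% of the 14648 genes the 3 W20 IF libraries lay below all 8 fed libraries, which is an observed share and not a chance rate.

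The same rule with the groups exchanged found 143 genes lowest in W20 AL and 39 lowest in W10, and the mirrored rule found 163 genes highest in W20 IF. For the genes lowest in W20 AL or W10, 4 libraries had to lie below the others, against 3 for W20 IF. The 143 and 39 are therefore not directly comparable with the 131.

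The summed level of the 131 genes was 1274, 1542 and 1560 CPM in W20 IF replicates 1 to 3. It was 2440, 2722, 2623 and 2699 CPM in W20 AL and 2613, 2699, 2304 and 2438 CPM in W10. The W20 IF values were thus all below the lowest fed library, as the rule requires of each gene. The means were 1459 ± 160 CPM in W20 IF (SD, n = 3), 2621 ± 127.7 CPM in W20 AL (SD, n = 4) and 2514 ± 176.8 CPM in W10 (SD, n = 4), which puts W20 IF at 0.557 of W20 AL and 0.580 of W10. As a share of all counts the genes took 0.127 to 0.156% in the 3 W20 IF libraries, 0.244 to 0.272% in W20 AL and 0.230 to 0.270% in W10, so the set is a small part of intestinal mRNA in each group.

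**Figure D1:**
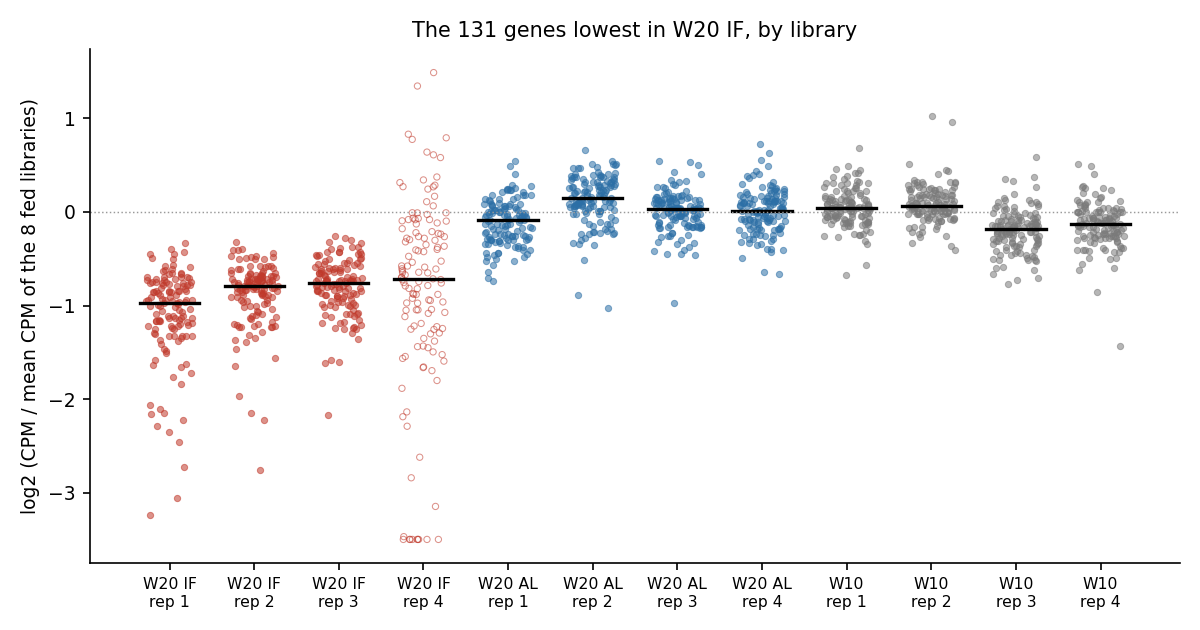
Level of each of the 131 genes in each of the 12 libraries, as the log2 ratio of its CPM to its mean over the 8 fed libraries, with W20 IF on the left, then W20 AL and W10. Each point is a gene, the bars are medians, and open points mark W20 IF replicate 4, which the rule did not use; ratios under -3.5 are drawn at -3.5. The medians correspond to ratios of 0.509, 0.577 and 0.590 in W20 IF replicates 1 to 3, and the fed libraries lie between 0.882 and 1.11.

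Relative to its own mean over the 8 fed libraries, the median gene of the set stood at 0.509, 0.577 and 0.590 in W20 IF replicates 1 to 3. In the same libraries the median of all 14648 genes at this level stood at 1.02, 0.975 and 0.966. The fed libraries ranged from 0.939 to 1.11 in W20 AL and from 0.882 to 1.04 in W10 for the median gene of the set. W20 IF replicate 1 was the lowest library of the set, and W10 replicate 3 the lowest of the fed libraries.

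The genes covered a wide range of expression. Means ran from 0.445 to 112 CPM in W20 IF with a median of 4.85 CPM, from 1.052 to 189 CPM in W20 AL with a median of 9.16 CPM, and from 1.01 to 169.7 CPM in W10 with a median of 8.69 CPM. The median of all genes at the level of the rule was 10.8 CPM in W20 AL, and it was 11.04 CPM in W10, close to the typical gene of the set. The most abundant 10 held 40.4% of the summed level in W20 IF, 39.3% in W20 AL and 39.9% in W10. Their share was therefore nearly the same in all 3 groups.

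Most of the differences were moderate. W20 IF means were 1.5 to 5.13 times lower than W20 AL means (median 1.85) and 1.5 to 7.48 times lower than W10 means (median 1.74). Against the nearer of the fed groups the median was 1.69-fold and the quartiles were 1.57 and 1.89. At least 2-fold below both fed groups were 22 of the 131 genes (16.8%), at least 2.5-fold were 6, and 109 were under 2-fold.

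**Figure D2:**
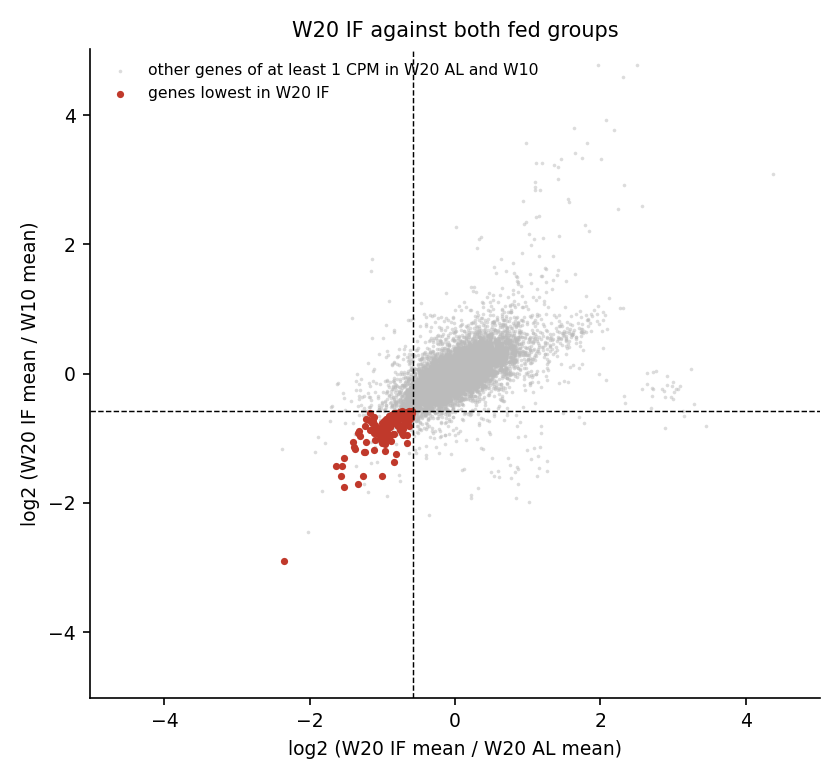
Log2 ratio of the W20 IF mean to the W20 AL mean (x axis) and to the W10 mean (y axis) for genes with at least 1 CPM in both fed groups. Red points are the 131 genes lowest in W20 IF, grey points the other genes, and dashed lines the limits of 1.5-fold; most red points lie close to the corner formed by the lines, and 1 gene lies far beyond the others.

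The median fold was largest in the lowest range of level and smallest in the highest, above the floor of 1.5 that the rule sets. Of the genes with a mean over the 8 fed libraries of 1 to under 5 CPM, 44 belonged to the set, with a median of 1.80-fold below the nearer fed group. The numbers were 56 genes and 1.64-fold at 5 to under 20 CPM, 17 genes and 1.68-fold at 20 to under 50 CPM, and 14 genes and 1.58-fold at 50 CPM or more. These were 1.00%, 1.07%, 0.623% and 0.606% of all genes in the same ranges of level. The 14 most abundant genes had W20 IF means of 30.5 to 112 CPM, W20 AL means of 50.7 to 189 CPM and W10 means of 54.0 to 169.7 CPM, and their folds reached 2.33 against W20 AL and 2.13 against W10. The 6 genes of at least 2.5-fold had W20 IF means of 0.565 to 5.48 CPM, W20 AL means of 1.43 to 16.1 CPM and W10 means of 1.598 to 17.4 CPM, so none of them was among the abundant ones.

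**Figure D3:**
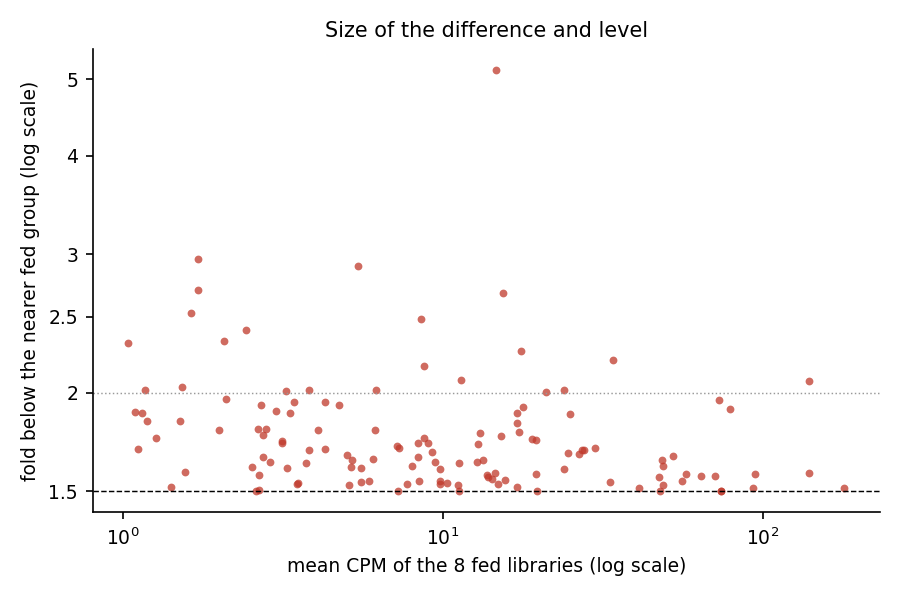
Fold by which the W20 IF mean lay below the nearer fed group (y axis, log scale) against the mean level over the 8 fed libraries in CPM (x axis, log scale) for the 131 genes. Each point is a gene, the dashed line is the limit of 1.5-fold and the dotted line marks 2-fold. The largest folds belong to genes under 20 CPM, and the genes of 50 CPM or more have a median of 1.58-fold.

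The gap between single libraries was narrower than that between means. The lowest fed library was 1.00 to 1.68 times the highest W20 IF library, with a median of 1.20. It was at least 1.5 times in 7 genes and under 1.1 times in 32, and in those 32 genes the groups were separated by little. The lowest fed library was a W20 AL library in 57 genes and a W10 library in 74. W10 replicate 3 was the lowest in 40 genes, W20 AL replicate 1 in 33 and W10 replicate 4 in 28, and each of the other 5 fed libraries in 1 to 10.

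The counts behind the W20 IF levels ranged widely, and their counting error was not compared with the narrow gaps between libraries. Summed over W20 IF replicates 1 to 3, the genes had 34 to 8565 counts with a median of 370. The lowest count in any of these libraries was 6, and 5 genes had under 10 counts in at least 1 of them.

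The gene with the lowest W20 IF level relative to the nearer fed group was ENSNFUG00015017204. It had 1.56, 2.17 and 3.25 CPM in W20 IF, against 20.6, 7.19, 10.8 and 9.23 CPM in W20 AL, and 12.2, 29.9, 21.98 and 5.45 CPM in W10. The groups did not overlap, but both fed groups were widely spread. W10 replicate 4, the lowest fed library, was 1.68 times W20 IF replicate 3, which is the widest such gap of the set. The means were 2.33 ± 0.857 CPM in W20 IF (SD, n = 3), 11.9 ± 5.95 CPM in W20 AL (SD, n = 4) and 17.4 ± 10.7 CPM in W10 (SD, n = 4). The log2 fold change of W20 IF in edgeR's fit was -2.36 (SE 0.67) against W20 AL and -2.88 (SE 0.67) against W10. These are the largest folds and also the largest standard errors of the set in both comparisons.

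The second gene by this measure was ENSNFUG00015005242, a gene of low level. It had 0.350, 0.815 and 0.561 CPM in W20 IF, which were 9, 21 and 14 counts. It had 1.21, 2.497, 1.70 and 1.40 CPM in W20 AL and 2.09, 1.30, 1.11 and 2.41 CPM in W10. All fed libraries lay above 1 CPM and all 3 W20 IF libraries below it. The log2 fold change was -1.55 (SE 0.38) against W20 AL and -1.57 (SE 0.38) against W10, and the W20 AL and W10 means of 1.70 and 1.73 CPM were nearly equal.

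The most abundant gene of the set showed a smaller but tighter difference. It had 100, 126.8 and 109.3 CPM in W20 IF, against 184.0, 184.1, 196.8 and 191.2 CPM in W20 AL, and 165.6, 179.8, 162.6 and 171.0 CPM in W10. Each fed library exceeded the highest W20 IF library by more than the range of its own group. The log2 fold change was -0.76 (SE 0.10) against W20 AL and -0.59 (SE 0.10) against W10. The second most abundant gene had 53.7, 82.2 and 101.3 CPM in W20 IF, against 137.4, 122.7, 101.5 and 139.2 CPM in W20 AL, and 160.2, 141.2, 145.0 and 166.7 CPM in W10. Here W20 AL replicate 3 and W20 IF replicate 3 were almost equal, and the W20 IF libraries were spread more widely than those of either fed group.

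**Figure D4:**
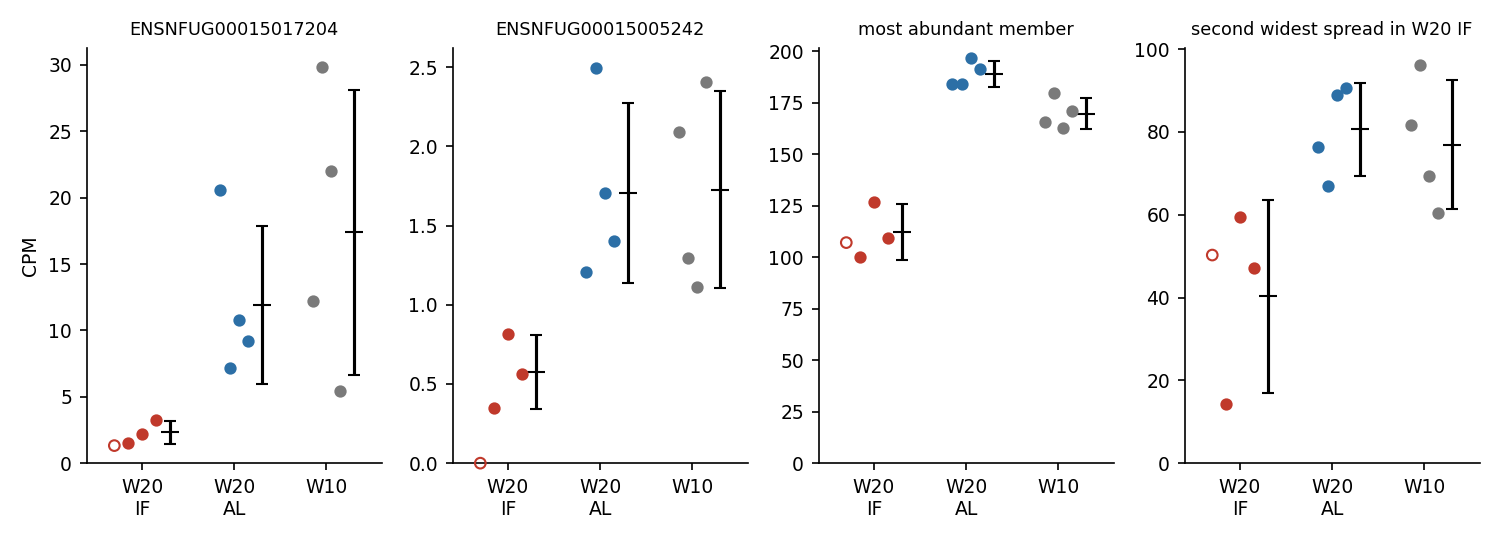
CPM in each library for 4 genes of the set, with W20 IF left of W20 AL and W10: the pair with the lowest W20 IF level relative to the nearer fed group, the most abundant gene, and a gene whose W20 IF libraries were widely spread. Points are libraries, the bars beside them are means with SD (n = 3 in W20 IF, n = 4 in each fed group), and the open point is W20 IF replicate 4, which is not in the mean; in the most abundant gene replicates 1 to 3 of W20 IF sit between 100 and 126.8 CPM, below all fed libraries.

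The table was fitted as a whole with edgeR's quasi-likelihood test on the 11 deeper libraries, and a gene was called at a Benjamini-Hochberg adjusted p under 0.05 and a log2 fold change beyond 1 in either direction. All 131 genes were among the 18277 tested. Called lower in W20 IF than in W20 AL were 39 of the 131 (29.8%), and the same call was made in 0.711% of all genes tested. Called lower in W20 IF than in W10 were 22 of the 131 (16.8%), against 0.268% of all genes tested. The rule used both contrasts, so the distance between these shares follows from the choice of the genes. Both comparisons share the W20 IF libraries. In them 17 of the 131 genes were called in both, where 0.153% of all genes tested were called lower in both. Called in at least 1 were 44 of the 131, beside 0.826% of all genes tested, and 87 were called in neither.

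The members make up 30% of the 130 genes called lower than in W20 AL and 44.9% of the 49 called lower than in W10. By the adjusted p alone, without the fold limit, 123 of the 131 were called lower than in W20 AL, beside 7.12% of all genes tested. Against W10 they were 100 of the 131, beside 2.25% of all genes tested. The fold limit, not the p, was thus what most of the set missed. Of the 22 genes at least 2-fold below both fed groups, 20 were called against W20 AL and 17 against W10. Of the 14 most abundant genes 1 was called in each comparison. The 22 were picked at 2-fold, which is the fold limit of the call itself. The 14 had median folds of 1.67 against W20 AL and 1.57 against W10, so the contrast largely follows from that limit.

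The median log2 fold change of the set was -0.89 against W20 AL (range -2.36 to -0.59, median SE 0.18), where the median over all genes tested was 0.02. Against W10 it was -0.79 (range -2.88 to -0.58, median SE 0.18), where the median over all genes tested was 0.00. Among all genes, the calls in W20 IF were 481 higher and 130 lower against W20 AL and 304 higher and 49 lower against W10. By the adjusted p alone the directions were closer in number, with 1468 higher and 1301 lower against W20 AL and 504 higher and 412 lower against W10.

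The number of calls among the 131 genes depended on single libraries. It was 25 against W20 AL and 11 against W10 without W20 IF replicate 1. Against W10 it was 14 without W10 replicate 1 and 13 without W10 replicate 2. Over all genes and both directions, 611 were called against W20 AL and 353 against W10 in all 11 libraries. These became 516 and 275 without W20 IF replicate 1. Against W10 the number of all genes called was 349 without W10 replicate 1 and 227 without W10 replicate 2.

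For ENSNFUG00015017204 the adjusted p of edgeR's quasi-likelihood test was 0.0468 against W20 AL and 0.0463 against W10, close to the limit of 0.05. Its call was lost in 9 of the 11 fits that left out a library against W20 AL, and in 9 of 11 against W10. Its log2 fold change stayed between -2.70 and -1.97 against W20 AL and between -3.22 and -2.51 against W10. For ENSNFUG00015005242 the call was lost in 1 of 11 such fits against W20 AL and in 4 of 11 against W10. The larger fold of the pair thus went with the call that was lost more often.

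Between the fed groups the members were held alike by the rule, which allowed at most 1.5-fold. The ratio of the W20 AL mean to the W10 mean ran from 0.670 to 1.47 with a median of 1.04, and 70 of the 131 genes were within 1.1-fold. The W20 AL mean was the higher of the pair in 84 genes (64.1%), compared with 45.5% of all genes at the level of the rule. The log2 fold change of W20 AL against W10 had a median of 0.06 and ran from -0.56 to 0.57. The edgeR test called 0 of the 131 genes between W20 AL and W10, where 0.93% of all genes tested were called in either direction, and DESeq2 also called 0. At an unadjusted p under 0.05 were 15 of the 131 members by edgeR, where 19.6% of all genes tested were. By DESeq2 they were 16 of the 131, where 18.7% of all genes tested were. By the adjusted p alone edgeR gave 3 of the 131, of which 1 was lower and 2 were higher in W20 AL. The share of all genes tested was 3.23%. A call past the fold limit was nearly barred by the rule. Its limit on likeness also holds down the counts by p alone, so none of these counts says anything of age on its own.

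The replicates of W20 IF did not contribute alike. Replicate 1 was the lowest of the 3 in 74 of the 131 genes (56.5%), replicate 2 in 38 (29.0%) and replicate 3 in 19 (14.5%). Over all genes at the level of the rule the shares were 27.1%, 36.2% and 36.7%. With CPM scaled by TMM the numbers were 82, 35 and 14, and so replicate 1 led under both scalings. The highest of the 3 was replicate 1 in 23 genes, replicate 2 in 46 and replicate 3 in 62.

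The ratio between the highest and the lowest W20 IF library of a gene had a median of 1.39. This is above the median of 1.20 between the lowest fed and the highest W20 IF library. It was at least 2-fold in 16 genes, and in 13 of these replicate 1 was the lowest. The widest ratio was 5.25, in a gene with 0.739, 3.88 and 3.77 CPM in W20 IF, against 4.72, 6.93, 4.49 and 3.93 CPM in W20 AL, and 6.20, 6.97, 7.71 and 8.12 CPM in W10. In this gene W20 IF replicates 2 and 3 were just below the lowest W20 AL library, and replicate 1 was far below both. The gene with the second widest spread had 14.3, 59.4 and 47.2 CPM in W20 IF, against 76.4, 66.8, 88.9 and 90.7 CPM in W20 AL, and 81.6, 96.2, 69.3 and 60.4 CPM in W10. Its W20 IF replicate 2 was almost equal to the lowest fed library, W10 replicate 4.

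The coefficient of variation of the set had a median of 16.9% in W20 IF, 14.6% in W20 AL and 14.4% in W10. Over all genes at the level of the rule it was 13.3%, 10.5% and 10.2% in the same groups. The median of the set was thus above that of all genes in all 3 groups, including those in which its genes were not low. Compared with all genes, the set also had the lower fed level, with a median of 8.73 CPM beside 10.9 CPM. In the 163 genes highest in W20 IF by the mirrored rule, the median coefficient of variation in W20 IF was 15.95%, near that of the set. These comparisons were not matched for level, and the differences were not tested.

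W20 IF replicate 4 was the only library that the rule did not use, while the 8 fed libraries it is set against were used. It was below all 8 fed libraries in 85 of the 131 genes (64.9%), within their range in 33 and above all of them in 13. Of all genes at the level of the rule, 46.3% were below all 8 fed libraries in this library and 19.2% above. With TMM-scaled CPM, 82 of the 131 genes (62.6%) were below all 8, beside 38.3% of all genes. The shallow library thus fell outside the fed range for most genes of any kind, and its count of members stood beside a high background.

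Depth limited this library, with 9 of the 131 genes at 0 counts, which allows up to 1.98 CPM. Among the 47 genes with at least 20 counts expected at their fed level, 32 (68.1%) were below all 8 fed libraries and 4 above, beside 51% below among all genes of that depth. Replicate 4 was below the lower of both fed means in 110 of the 131 genes (84.0%), beside 58.5% of all genes at the level of the rule. In the deeper class 41 of the 47 genes were below it, beside 63.6% of all genes. The median ratio of replicate 4 to the fed mean was 0.638 in the 47 genes and 0.853 in all genes of the same depth. The members were lower than other genes by these medians, and the difference rests on a single library and has no replicate check. The 8 fed libraries were also used to choose the members, which had to be high in them. That choice alone can raise the members' shares and lower their ratio. The comparisons with replicate 4 are therefore a description and not an independent check.

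**Figure D5:**
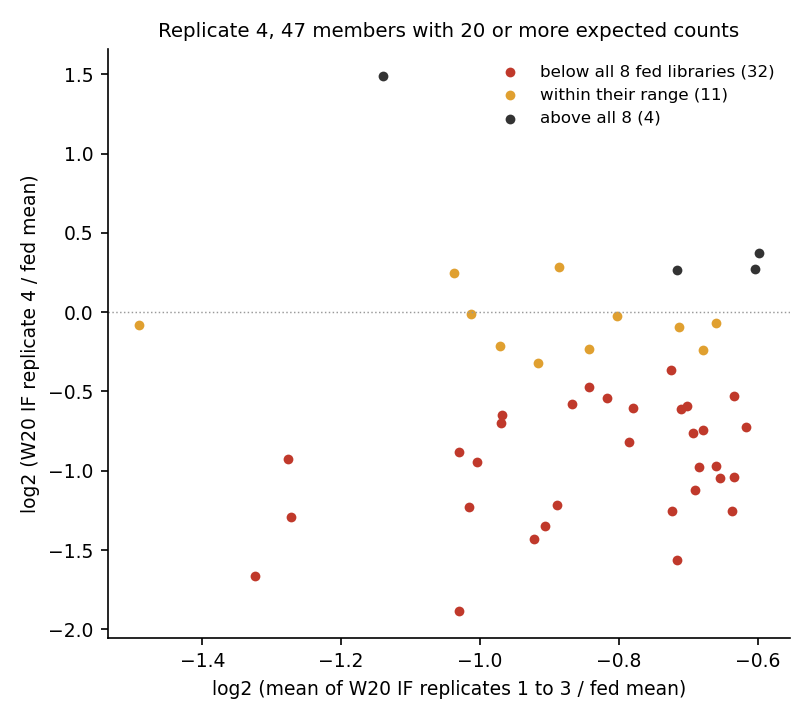
Log2 ratio of W20 IF replicate 4 to the mean of the 8 fed libraries (y axis) against the same ratio of the mean of W20 IF replicates 1 to 3 (x axis), for the 47 genes with at least 20 counts expected in replicate 4. Each point is a gene, coloured by whether replicate 4 lay below all 8 fed libraries (32 genes), within their range or above all 8 (4 genes); most points lie below the dotted line of equal level, and 1 gene stands far above it.

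The summed level of the set in replicate 4 was 2047 CPM, above the 1274 to 1560 CPM of the other W20 IF libraries and below the 2304 CPM of the lowest fed library. A large part of the excess came from 1 gene, the third most abundant of the set. It had 44.1, 77.2 and 68.8 CPM in W20 IF replicates 1 to 3 but 392.1 CPM (593 counts) in replicate 4. It had 89.2, 118.3, 153.0 and 230.9 CPM in W20 AL and 133.8, 123.6, 108.3 and 160.2 CPM in W10. For this gene the single left-out library lay above every fed library, so its low level in W20 IF held in 3 of the 4 libraries of the group. ENSNFUG00015017204 had 1.32 CPM in replicate 4 from 2 counts, and ENSNFUG00015005242 had 0 counts there with 2.58 expected, which shows neither a low nor a high level. The most abundant gene had 107.1 CPM, within the 100 to 126.8 CPM of the other W20 IF libraries.

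When replicate 4 was added to the rule as a further W20 IF library, 138 genes met it, and 80 of them were among the 131. The added library changes the W20 IF mean as well as the order, and 46.3% of all genes at the level of the rule lay below all 8 fed libraries in it. The closeness of 138 to 131 is therefore not a sign that the sets are alike. The number found also depended on which of the other W20 IF libraries entered. It was 176 without W20 IF replicate 1, 202 without replicate 2 and 250 without replicate 3. Of the 131 genes, 98, 119 and 122 were kept in these cases. Each removal also leaves fewer W20 IF libraries that must lie below the fed ones, so the rise in number need not reflect the library removed.

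The mirrored rule, which asks for genes highest in W20 IF, found 163 genes, which are set beside the 131 here. Its floor of 1 CPM is on the W20 IF mean, and it sets no floor on the fed means. Of the set lowest in W20 IF 16.8% were at least 2-fold from both fed groups, and of the mirrored set 30.7%, which were 50 genes. The median fold from the nearer fed group was 1.69 in the lowest set and 1.77 in the mirrored set, with maxima of 5.13 and 6.45. The median mean over the fed libraries was 8.73 CPM in the lowest set, 1.91 CPM in the mirrored set and 10.9 CPM in all genes at the level of the rule. The mirrored genes were highest in W20 IF replicate 1 in 65 cases, in replicate 2 in 63 and in replicate 3 in 35. These sets were found on the same libraries, and the differences between them were not tested. The unlike floors alone let the mirrored set hold genes of lower fed level than the lowest set can. The fed levels, folds and shares at 2-fold of the sets are therefore not compared like for like.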

How the data were processed

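RNA of intestines of male GRZ fish was sequenced in 12 libraries, 4 per group. According to the submitters' notes and the methods, reads of 75 bp were trimmed with Trimmomatic, aligned by STAR against genome Nfu_20140520 and assigned to Ensembl release 108 genes by featureCounts (versions and the handling of multi-mapped reads are not given in the sources used here, which leaves the counts of nearly identical paralogs uncertain). The values deposited by the authors are whole-number counts without normalization, and all 12 columns were mapped to a sample by name.

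CPM is a count over its column sum, times 1000000. Across genes, edgeR 4.0.16 (limma 3.58.1, R 4.3.3) was used with TMM, filterByExpr (minimum count 10, minimum total 15), glmQLFit with robust estimation and glmQLFTest. 1 model with a mean per group was fitted to 11 libraries, without W20 IF replicate 4. The Benjamini-Hochberg adjustment ran over 18277 genes. Calls needed an adjusted p under 0.05 and a log2 fold change beyond 1 in either direction. The standard error is the absolute log2 fold change over the root of F. The script was tested on simulated data with 200 lowered genes. These were lowered by a larger fold than most members show, so the simulation does not cover differences of the members' size. In 18 pairs of libraries of the same group 0 were identical, with chi-square values of at least 9.41 per degree of freedom, and each library was counted separately. The methods describe several animals per cohort and tests on single intestines, so replicates are taken as separate fish, although the labels only number them.

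The members and lists were chosen with earlier results of these data known. The 2 members with the lowest W20 IF level relative to the nearer fed group are given by identifier, since the files pair no names with identifiers and 0 matched the reference table, which is of another assembly. Members described by rank of level or of spread were picked after their values were seen. Without names, the planned gene lists, promoters and marker checks were not used here. Alternatives were DESeq2 1.42.0, the likelihood ratio test, TMM-scaled CPM, other limits and filters, a replicate block, all 12 libraries and each library left out in turn. Python 3.11.15 with matplotlib 3.10.9 drew the figures.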

Additional observations from a re-analysis of the deposited data

Results flagged for a closer look

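The total of W20 IF replicate 4, 1512262 counts, lay far from the 24937470 to 25774912 counts of the other libraries of its group, past the 95% critical value of Dixon's test. The gap to the nearest library of the group was 0.965 of the group's range. Of 21 groups of 4 libraries tested this way, 1 passed the limit. Chance gives about 1 in 20 at that limit, a rate that does not measure how far past it this total lay. Of the 262 groups formed by the W20 AL and W10 libraries of each of the 131 genes, 11 (4.2%) passed the same limit. The rule used these values and can have shaped their spread, and the genes share the same 8 libraries. This share is therefore a description and is not to be read against the chance rate. In W20 IF replicate 4, which the choice of the genes did not use, 13 of the 131 genes lay above all 8 fed libraries, where 19.2% of all genes at the level of the rule did. By TMM-scaled CPM there were 14. The 8 fed libraries themselves were used in choosing the genes.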

How the results depend on the processing

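By the adjusted p alone, 123 members were called against W20 AL and 100 against W10, beside 39 and 22 with the fold limit. Over all genes the calls were 611 against W20 AL and 353 against W10, then 402 and 135 where each library had to hold at least 10 counts, and 2769 and 916 by the adjusted p alone. The rule found 22 genes with a 2-fold limit, 473 where the fed means had to be only 25% above W20 IF and 85 with a level of at least 5 CPM. With at least 20 expected counts, 32 of 47 members were below all fed libraries in W20 IF replicate 4. With each library left out in turn, members called were 25 to 50 against W20 AL and 11 to 23 against W10, all genes called 430 to 651 and 227 to 349, and genes found by the rule 116 to 250, of which 98 to 130 were members. With DESeq2, 41 and 26 members were called, and with all 12 libraries 39 and 19. All genes called were 666 and 406 with DESeq2 and 559 and 300 with all 12 libraries. With TMM-scaled CPM the rule found 131 genes, 121 of them members. All members had negative log2 fold changes in 20 of the 21 fits, and in the remaining fit not all of them did. The sign of the members' log2 fold changes is set by the rule in every fit that leaves out W20 IF replicate 4, and shows no stability. With all 12 libraries the rule does not set it.

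The replicate numbers did not pair the libraries: over 10 pairs with the same number the correlation of deviations was -0.146 to 0.0975, 0 were above 0.1, and 2 of 11 libraries correlated best with their own number. With the replicate block, 39 members were called against W20 AL and 18 against W10, and 516 and 330 of all genes. ENSNFUG00015017204 had log2 fold changes of -2.68 and -3.03 under the block and was then called in neither comparison, and ENSNFUG00015005242, at -1.53 against W10, was not called there.

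Depth limits the lowest genes, which rest on as few as 6 counts in a W20 IF library, and the genes at low level in W20 IF replicate 4, where 47 of 131 members had at least 20 expected counts. The order of the libraries rests on only 3 W20 IF libraries and was met by 5.45% of genes at the level of the rule.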
